A study of Rattus norvegicus with 6 samples.

Results

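A group of vascular basement membrane genes was examined in sorted rat skin endothelium. It comprised the laminin chains Lama4, Lama5, Lamb1, Lamb2 and Lamc1, the nidogens Nid1 and Nid2, the proteoglycan perlecan (Hspg2), and the SPARC proteins Sparc and Sparcl1. The 10 genes were taken by name, with earlier results of these data known. Of these, 6 had a probeset with that gene symbol in the platform annotation given, out of 15037 genes so named. They were Lama5, Lamb2, Lamc1, Nid2, Sparc and Sparcl1, each with a single probeset, and all 6 passed the filter on low signal. Lama4, Lamb1, Nid1 and Hspg2 were not analysed here.

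The animals were 3 rats labelled as IL-33 knock-outs (28, 27 and 52) and 3 wildtype rats (34, 45 and 37). All were Sprague-Dawley, and each genotype held 2 females and 1 male, the males being knockout 52 and wildtype 37. The age of the animals, the position of the deletion and the way it was made are not stated in the labels. Abdominal skin was digested with collagenase I and DNase I, cells positive for CD45 (leukocytes) or Lyve-1 (lymphatic endothelium) were removed on magnetic columns, and cells positive for CD31, an endothelial surface protein, were kept. RNA of each animal was put on 1 Affymetrix array after biotin labelling. The spread between arrays is therefore a spread between animals that also holds any difference in sorting, labelling and array handling.

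A basement membrane is the thin sheet of matrix beneath the endothelium and around pericytes. Laminins are trimers of an alpha, a beta and a gamma chain, bound by integrins and dystroglycan on the cell surface. Many are cross-shaped and polymerise into a network. Nidogens and perlecan link the laminin network to that of type IV collagen. SPARC binds collagen and is made during tissue remodelling, and its relative SPARC-like 1, also called hevin, is abundant in vessels.

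Values are log2 expression, so a difference of 1 is a doubling if that reading of the deposited scale holds. Array medians over all probesets ran between 4.63 and 4.78. Between 22 and 49 probesets on each array shared its highest value, which was 19.70 to 19.93. A gene at that ceiling cannot show a difference. The highest of the 23 background probesets, which match no rat gene by design, read 5.36 to 5.87 per array and is used here as the limit of background. Il33 checked the labels: it read 8.07 (28), 8.37 (27) and 9.82 (52) in the knockout, against 13.86 (34), 16.32 (45) and 16.60 (37) in the wildtype, a difference of -6.84 (limma adjusted p = 0.0438). All 12 measured markers of blood endothelium lay above background on every array, with list means of 15.43 to 15.54 in the knockout and 15.04 to 15.35 in the wildtype. Means of the 6 measured keratinocyte markers were 8.01 to 11.27 in the knockout and 7.74 to 13.68 in the wildtype, so the arrays also differed in signal of other skin cells. Above background on every array were 6 of 10 measured fibroblast, 8 of 10 pericyte and smooth muscle, 2 of 6 lymphatic, 3 of 9 leukocyte and 3 of 6 erythroid markers, but 0 of 3 Schwann cell, 0 of 3 adipocyte and 0 of 4 skeletal muscle markers. In such bulk samples, fewer cells of a type and less RNA per cell cannot be told apart.

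The 6 measured genes kept the same order of signal on all 6 arrays. Sparc was highest, followed by Sparcl1, Lamc1, Lamb2, Lama5 and Nid2. The closest neighbours were Lamb2 and Lama5, only 0.22 apart in wildtype 34 although up to 2.88 apart elsewhere, and every other neighbouring pair was at least 2.04 apart on each array. Probesets differ in how strongly they bind their transcript, so this is an order of signals and not of transcript amounts.

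**Figure D1:**
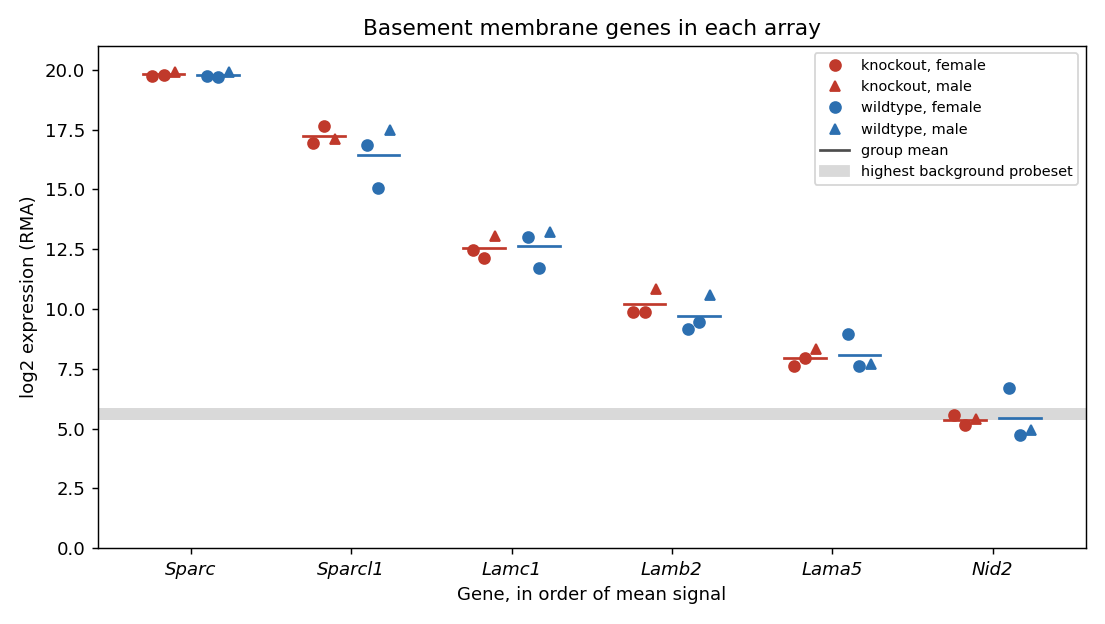
Log2 expression (vertical axis) of the 6 measured genes, in order of mean signal, with knockout animals in red on the left and wildtype animals in blue on the right of each gene. Circles are females, triangles are males, short lines are group means and the grey band is the range over arrays of the highest background probeset. Sparc lies at 19.70 to 19.93 in every animal, Nid2 lies in or below the band except in wildtype 34, and the genotypes overlap for each gene.

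The 3 genes of highest signal all had a promoter window in the RefSeq table (assembly GRCr8), and these windows are shown because they differ in their letters although all 3 genes gave strong signal. Each runs from 250 bases before to 50 bases after the annotated start and is written 5′ to 3′ on the gene's own strand. Sparc lies at chr10:40038767-40039066 on the minus strand, Sparcl1 at chr14:5937234-5937533 on the plus strand and Lamc1 at chr13:68051937-68052236 on the minus strand. Capitals mark the GC box GGGCGG, which Sp1 family factors bind, and the repeat GGAGGA, each searched on both strands with overlapping matches counted.
Sparc: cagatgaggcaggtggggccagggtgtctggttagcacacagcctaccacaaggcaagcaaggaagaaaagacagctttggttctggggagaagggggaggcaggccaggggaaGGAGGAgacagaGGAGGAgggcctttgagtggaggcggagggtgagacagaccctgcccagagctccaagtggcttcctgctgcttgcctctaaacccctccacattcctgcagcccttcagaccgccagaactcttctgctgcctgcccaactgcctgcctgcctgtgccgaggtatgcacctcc
Sparcl1: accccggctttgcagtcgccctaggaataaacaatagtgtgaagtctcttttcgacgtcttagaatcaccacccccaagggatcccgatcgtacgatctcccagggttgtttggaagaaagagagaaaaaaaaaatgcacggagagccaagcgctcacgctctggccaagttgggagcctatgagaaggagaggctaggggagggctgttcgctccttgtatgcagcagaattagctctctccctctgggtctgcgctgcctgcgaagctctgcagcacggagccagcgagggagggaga
Lamc1: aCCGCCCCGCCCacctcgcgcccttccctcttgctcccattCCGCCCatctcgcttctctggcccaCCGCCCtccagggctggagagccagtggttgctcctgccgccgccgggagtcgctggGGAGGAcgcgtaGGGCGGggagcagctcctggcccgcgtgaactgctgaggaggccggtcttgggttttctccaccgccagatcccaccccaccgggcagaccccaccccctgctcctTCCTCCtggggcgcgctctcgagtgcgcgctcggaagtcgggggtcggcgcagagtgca
The Lamc1 window held 5 GC boxes, 2 GGAGGA repeats and 28 CpG dinucleotides. The Sparc window held 0 GC boxes, 2 GGAGGA repeats and 3 CpG dinucleotides, and a GGA-rich stretch near the start is known from the cattle gene. The Sparcl1 window held neither motif and had 15 CpG dinucleotides. Among all 33469 windows of 300 bases in the table, 33.1% held a GC box and 32.5% a GGAGGA repeat, and the median count of CpG was 7. TATAAA, the core of a TATA box, was in none of the 3 windows on either strand and in 14.2% of all windows. The counts describe letters only.

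The comparison of genotypes asks whether loss of interleukin-33, a cytokine held in the nucleus of barrier cells, changes the expression of these matrix genes. None of the 6 measured genes passed the test, and in each the knockout and wildtype arrays overlapped. In limma, 0 of the 6 had an adjusted p under 0.05 and 0 had an unadjusted p under 0.05, the smallest adjusted p being 0.999. Over all 11577 genes tested, 0.00864% were called (Il33 alone), 1.98% had an unadjusted p under 0.05, and 6.25% had arrays that did not overlap. Of the 4 genes that lay above background and below the ceiling on every array (Lama5, Lamb2, Lamc1 and Sparcl1), 2 had differences above and 2 below 0, where 54.0% of all genes tested were above 0. The median over all 6, -0.028, is the midpoint of Nid2 and Sparc, which background and the ceiling limit, and describes no measured change.

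Lama5 encodes the alpha chain of laminin-511 and laminin-521, made by mature endothelium and by epidermis. Its log2 expression was 7.61 (animal 28), 7.95 (27) and 8.34 (52) in the knockout, against 8.95 (34), 7.61 (45) and 7.70 (37) in the wildtype. The single high value was that of wildtype 34, and the other wildtype values lay within or at the edge of the knockout range. The difference was -0.12 (95% interval -1.08 to 0.84, limma adjusted p = 0.999). Among females it was -0.50, and between the males 0.64, and without wildtype 34 it was 0.31. Wildtype 34 also had the highest mean of the keratinocyte markers, 13.68 against 7.74 to 11.27 on the other arrays. The arrays with the next highest keratinocyte means, knockout 28 (11.27) and wildtype 45 (10.94), had the lowest Lama5 value, 7.61 on each. With the keratinocyte median as a covariate the Lama5 difference was 0.12. The part of keratinocytes in the Lama5 value was not tested.

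Lamb2 encodes a laminin beta chain of mature vessel walls and of the nerve-muscle junction. It read 9.89 (28), 9.89 (27) and 10.83 (52) in the knockout, against 9.17 (34), 9.44 (45) and 10.58 (37) in the wildtype. The male of each genotype was the highest of its group, and the ranges overlapped through male wildtype 37. The group means were 10.20 ± 0.54 in the knockout and 9.73 ± 0.75 in the wildtype (SD, n = 3 each), a difference of 0.47 (95% interval -0.55 to 1.49, limma adjusted p = 0.999). Among females it was 0.59, and between the males 0.25. Without knockout 52 it was 0.16 and without wildtype 37 it was 0.90, and with the keratinocyte median as a covariate it was 0.051.

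Lamc1 encodes the gamma chain shared by most vascular laminins. It read 12.48 (28), 12.12 (27) and 13.07 (52) in the knockout, against 13.02 (34), 11.70 (45) and 13.24 (37) in the wildtype. Values of the genotypes interleaved, with both the lowest and the highest in the wildtype. The difference was -0.10 (95% interval -1.14 to 0.95, limma adjusted p = 0.999). The log2 ratio of Lamb2 to Lamc1, chains of the same trimer, was -2.59, -2.23 and -2.24 in knockout animals, against -3.85, -2.26 and -2.66 in wildtype animals. Wildtype 34 alone stood apart in that ratio, with the lowest Lamb2 value of the 6 arrays.

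Nid2 encodes nidogen-2, a linker of laminin and type IV collagen that overlaps in function with nidogen-1. It read 5.57 (28), 5.14 (27) and 5.42 (52) in the knockout, against 6.71 (34), 4.72 (45) and 4.95 (37) in the wildtype. It exceeded the highest background probeset in 2 of 6 arrays, knockout 28 and wildtype 34, so its level in the other animals cannot be separated from background. The difference was -0.083 (95% interval -1.23 to 1.06, limma adjusted p = 0.999), and without wildtype 34 it was 0.54. Wildtype 34 also had the highest means of the fibroblast markers, 10.15 against 8.07 to 8.91 elsewhere, and of the leukocyte markers, 6.98 against 5.28 to 6.07 elsewhere, whose part in the Nid2 value was not tested.

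Sparc lay at the top of the scale, since its value equalled the maximum of the array on each of the 6 arrays. It read 19.76 (28), 19.78 (27) and 19.93 (52) in the knockout, against 19.76 (34), 19.70 (45) and 19.93 (37) in the wildtype. These values follow the ceiling of each array and carry no order between animals. The difference of 0.027 (95% interval -0.65 to 0.70) therefore puts no limit on a change in Sparc RNA.

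Sparcl1 had the second strongest signal and the largest genotype difference of the 6 measured genes. It read 16.93 (28), 17.65 (27) and 17.11 (52) in the knockout, against 16.84 (34), 15.04 (45) and 17.49 (37) in the wildtype. Wildtype 45 was lowest by 1.80, and the other 5 arrays lay within 0.81 of each other. The group means were 17.23 ± 0.37 in the knockout and 16.46 ± 1.27 in the wildtype (SD, n = 3 each), a difference of 0.77 (95% interval -0.52 to 2.06, limma adjusted p = 0.999). Without wildtype 45 the difference was 0.065, and without wildtype 37 it was 1.29. Among females it was 1.35, and between the males -0.38.

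Wildtype 45 was also the array with the lowest mean of the 10 pericyte and smooth muscle markers, 9.26 against 9.92 to 10.94 on the other arrays. The list means were 10.13 to 10.94 in the knockout and 9.26 to 10.88 in the wildtype, and 8 of the 10 markers were above background on every array. Of the 10 markers 6 were lowest in wildtype 45, and the other 4 (Acta2, Tagln, Notch3 and Cspg4) were lower on another array. Rgs5, a regulator of G protein signalling that marks pericytes, read 18.54, 18.56 and 18.68 in knockout animals, against 18.19, 16.49 and 18.63 in wildtype animals. Pdgfrb, the PDGF receptor of pericytes, read 13.05, 13.62 and 13.15 in knockout animals, against 11.90, 11.44 and 13.10 in wildtype animals. The part of these cells in the Sparcl1 value was not tested. Of 11571 other genes, those whose distance from Sparcl1 varied least over the 6 arrays were Txlng (SD 0.209), Tob1 (0.225), St8sia4 (0.236), Ammecr1l (0.254) and Map3k3 (0.261). Genes chosen in this way share the low value of wildtype 45 by construction, and Txlng, at 4.29 there, lay below the limit of background of that array.

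**Figure D2:**
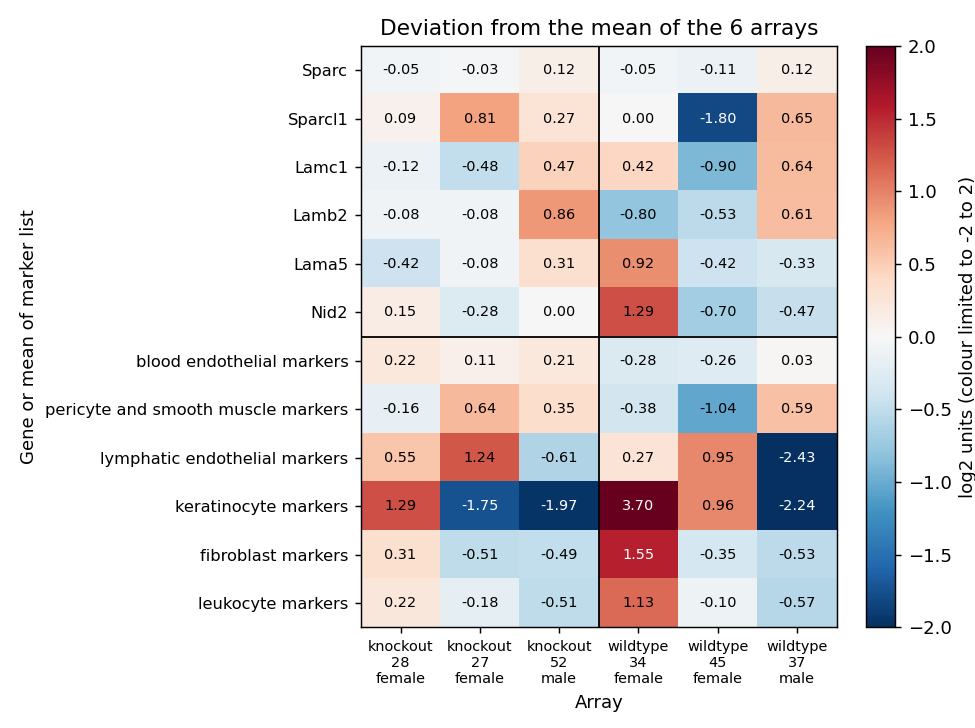
Deviation of each measured gene (above the line) and of the mean of each marker list (below it) from its own mean over the 6 arrays, in log2 units, with knockout animals on the left and wildtype animals on the right. The low value of Sparcl1 in wildtype 45 (-1.80) stands above a low value of the pericyte list (-1.04). Lamc1 (-0.90), Nid2 (-0.70), Lamb2 (-0.53), Lama5 (-0.42) and Sparc (-0.11, at the ceiling) were also below their means there. So were the fibroblast (-0.35), blood endothelial (-0.26) and leukocyte (-0.10) lists. The lymphatic list (0.95) was above its mean there. The high values of Lama5 (0.92) and Nid2 (1.29) in wildtype 34 stand above high values of the keratinocyte (3.70), fibroblast (1.55) and leukocyte (1.13) lists. The keratinocyte list was also above its mean in knockout 28 (1.29) and wildtype 45 (0.96), where Lama5 was lowest (-0.42 each). The part of other cell types in the gene values was not tested.

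The bacterial and phage spike-in controls split the arrays into high (knockout 28, wildtype 34 and 45, means 10.12 to 10.42) and low (knockout 27 and 52, wildtype 37, means 8.82 to 9.33). Within the high arrays the difference of Sparcl1 was 0.99, and within the low arrays it was -0.11. For Lamb2 it was 0.59 in the high and -0.22 in the low arrays. Lama5 went the other way, with -0.67 in the high and 0.44 in the low arrays. Lamc1 had 0.12 in the high and -0.65 in the low arrays. The signs were thus opposite in these 4 genes, as they were in 49.4% of all genes tested. Each side rests on 3 animals, with 1 knockout in the high and 1 wildtype in the low arrays. Sparc and Nid2 are left out here, being at the ceiling and near background.

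Sex was compared in a model with genotype, over 2 males and 4 females. Lamb2, Lamc1 and Sparc were higher in both males than in all 4 females, where 23.4% of all genes tested had that pattern, and 0 of the 6 were lower in both males, where 8.29% of all genes were. For Sparc this is the ceiling of the male arrays, 19.93 against 19.70 to 19.78. Lamb2 read 10.83 and 10.58 in males and 9.17 to 9.89 in females, a difference of 1.11 (95% interval 0.41 to 1.80, limma adjusted p = 0.145). Lamc1 read 13.07 and 13.24 in males and 11.70 to 13.02 in females, a difference of 0.82 (95% interval -0.090 to 1.74, limma adjusted p = 0.311). Without wildtype 45 the Lamc1 difference was 0.53.

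In that test 0 of the 6 genes had an adjusted p under 0.05 and 1, Lamb2, had an unadjusted p under 0.05, where the shares of all genes were 0.0259% and 18.6%. Over all genes tested the median sex difference was 0.18 as deposited and 0.061 after quantile normalization was applied again, and that setting gave 0.72 for Lamb2 and 0.36 for Lamc1. The males' arrays were both on the low side of the spike-in split, which also held female knockout 27. With that split as a block the male minus female difference was 1.04 for Lamb2 and 1.03 for Lamc1. Markers of other cell types were also compared between the sexes. The males had the lowest means of lymphatic markers, 7.81 and 5.99 against 8.69 to 9.66 in the females, and 6 of 6 had a male minus female difference below 0 (median -2.16). Ccl21, a chemokine of lymphatic endothelium, passed the sex test (-4.48, limma adjusted p = 0.0322). Of the pericyte and smooth muscle markers 7 of 10 had a difference above 0 (median 0.67), near the share of all genes tested, 61.5%. Their list means in the males, 10.64 and 10.88, lay within the range of the females, 9.26 to 10.94. The smooth muscle genes Tagln and Des, chosen after their values were seen, had differences of 2.13 and 1.88 that missed the threshold (limma adjusted p = 0.128 and 0.145). Kcnj8, Abcc9 and Cspg4 of the same list went the other way, with differences of -0.11, -0.62 and -0.90. The part of these cells in the sex differences of Lamb2 and Lamc1 was not tested. The males also had the lowest means of keratinocyte markers, 8.01 and 7.74 against 8.23 to 13.68 in the females, and with the keratinocyte median as a covariate the differences were 0.91 for Lamb2 and 1.44 for Lamc1. Lama5, Nid2 and Sparcl1 had ranges in males that overlapped those in females, with differences of -0.010, -0.35 and 0.68 and 95% intervals that included 0. The direction of these 3 turned in other fits, to 0.82 for Nid2 with the keratinocyte covariate, -0.15 for Sparcl1 with the spike-in block and 0.73 for Lama5 with the keratinocyte covariate.

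**Figure D3:**
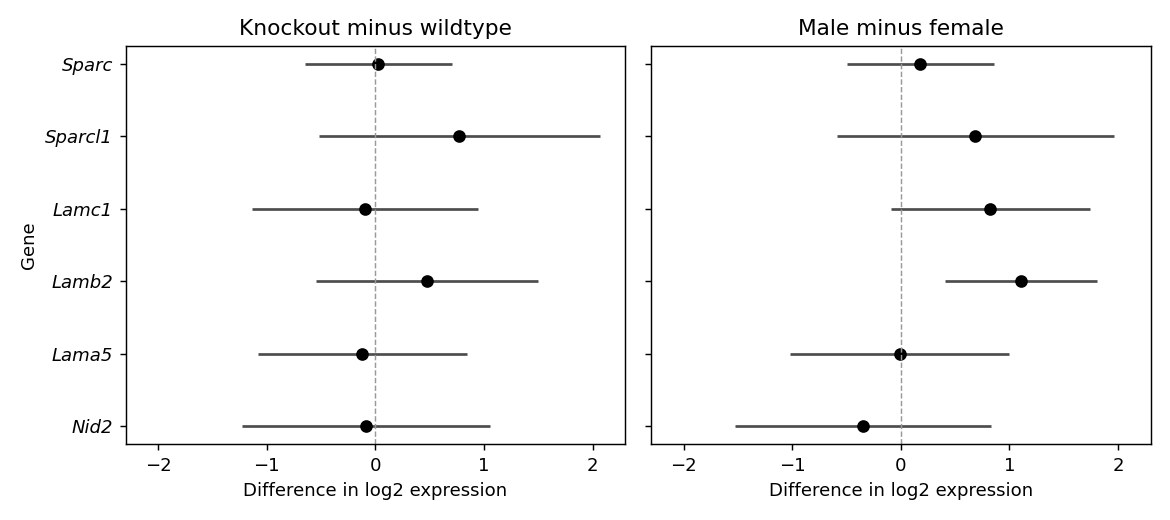
Differences in log2 expression (horizontal axis) of the 6 measured genes, knockout minus wildtype on the left and male minus female on the right, with points for the limma estimate and lines for its 95% interval. All genotype intervals include 0, and on the right only that of Lamb2 (0.41 to 1.80) does not, with an adjusted p of 0.145.

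The genotype difference was also compared between sexes. The interaction test called 0 of the 6 genes by adjusted and 0 by unadjusted p, against 0% and 1.03% of all genes tested. The largest contrast was in Sparcl1, where the difference in the males minus that in the females was -1.73 (95% interval -4.20 to 0.74, limma adjusted p = 0.999). With a single male of each genotype the intervals are wide, and no gene was shown to respond alike in the sexes.

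Other genes of the same matrix were examined as lists. Of the other laminin chains 3 of 7 had a named probeset, and 2 were tested, of which 0 passed. Lamb3, a chain of the epidermal laminin-332, read 5.33, 3.62 and 3.83 in knockout animals, against 6.34, 4.95 and 4.39 in wildtype animals. Lamc3 had a mean of 4.41 in the knockout and 3.87 in the wildtype. The mean signals of Lamb3 and Lamc3 over 6 arrays, 4.74 and 4.14, lay below the highest background probeset.

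Of the other basement membrane proteins 13 of 23 were tested and 0 passed the genotype test, 5 having differences above and 8 below 0 (median -0.023). Tinagl1, a matrix protein of vessels related to tubulointerstitial nephritis antigen, had the highest signal of the list. It read 15.40, 15.90 and 16.75 in knockout animals, against 14.67, 14.92 and 16.67 in wildtype animals, with a difference of 0.60. Pxdn, the peroxidase that cross-links type IV collagen, had means of 11.00 in the knockout and 11.12 in the wildtype. Col15a1, a collagen of the outer basement membrane, had means of 10.45 in the knockout and 10.46 in the wildtype. As with Lamb2 and 23.4% of all genes tested, Tinagl1 was higher in both males than in all females, by 1.49 (limma adjusted p = 0.117).

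Of the other SPARC family genes 4 of 6 were tested and 0 passed, with 1 difference above and 3 below 0 (median -0.17). Fstl1, a secreted glycoprotein, was the only tested gene of that list above background on every array, with means of 12.78 ± 0.80 in the knockout and 12.98 ± 0.76 in the wildtype (SD, n = 3 each). Smoc2 and Smoc1, matrix-bound calcium-binding proteins, had differences of -0.70 and -0.15 at mean signals near background (5.51 and 4.59).

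Of the laminin receptors 10 of 12 were tested and 0 passed. In 1 of the 10 the knockout and wildtype arrays did not overlap, where 6.25% of all genes tested had no overlap. Of the 10 differences 8 were above 0 (median 0.37), where 54.0% of all genes tested were above 0 (median 0.033). The blood endothelial markers had 10 of 12 above 0 (median 0.36) and the pericyte and smooth muscle markers 9 of 10 (median 0.45 in log2 units), and the part of these cells in the receptor values was not tested. Bcam, a receptor for laminin alpha-5, had means of 15.26 in the knockout and 15.22 in the wildtype. Itgb1, the beta-1 integrin subunit, read 14.63, 14.81 and 15.24 in knockout animals, against 14.40, 14.42 and 14.63 in wildtype animals, touching at 14.63. Itgb4, the partner of integrin alpha-6 in epithelia and some endothelia, read 12.19, 13.05 and 13.52 in knockout animals, against 13.95, 13.28 and 13.96 in wildtype animals, a difference of -0.81 (limma adjusted p = 0.999). Of the enzymes that build or trim the heparan sulfate carried by perlecan 11 of 13 were tested and 0 passed, 3 having differences above and 8 below 0 (median -0.093). The elongating enzyme Ext1, the sulfatase Sulf1 and Extl3, which starts the chain, had differences of -0.063, -0.35 and 0.52.

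**Figure D4:**
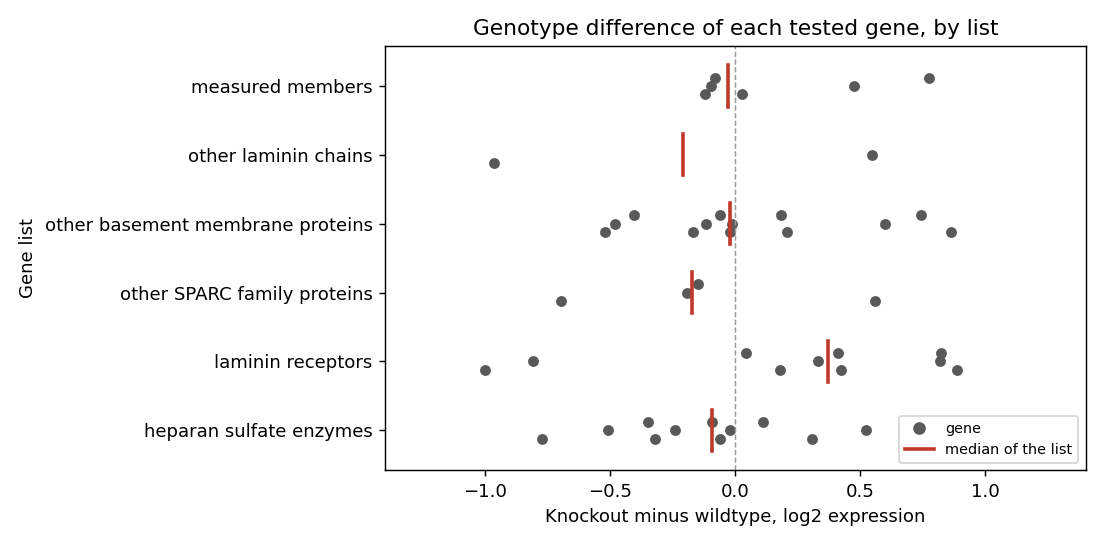
Knockout minus wildtype difference in log2 expression (horizontal axis) of each tested gene, with the 6 measured laminin, nidogen and SPARC genes in the top row and 5 lists of related genes beneath. Points are genes and red lines are list medians, which lie between -0.21 and 0.37. No gene shown passed the limma test.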

How the data were processed

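The authors deposited log2 expression per probeset. The submitters' processing notes name RMA and Affymetrix Expression Console, with no version. RMA subtracts background, equalises array distributions and combines the probes of a probeset. The deposited values did not have the same distribution on each array, with medians of 4.63 to 4.78 and highest values of 19.70 to 19.93. The labels name no genome build or probeset library. That the scale is log2 rests on the RMA entry and on the range of the values. They were used as deposited, without further scaling.

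Of 24834 probesets 1646 were controls. Of the other 23188, 15049 had 1 gene symbol in the platform annotation, 0 had several and 8139 were unnamed here. RefSeq (GRCr8) held all 15049 of their Entrez identifiers, with 0 changes of symbol. Where a gene had several probesets (10 genes) the brightest was kept. A gene was dropped as dim if its mean was below 3.51, the 25th percentile of non-control probesets, which removed 3460 genes and kept 11577.

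The genotype test used lmFit and eBayes of limma 3.58.1 (R 4.3.3) over 6 arrays. Sex was fitted beside genotype, and their interaction was fitted with both as terms. All p-values are two-sided, with Benjamini-Hochberg adjustment over all genes tested and a threshold of 0.05. With 3 animals against 3 an exact permutation test has no p below 0.10 to give, and it was left out. The number of arrays limits the precision (median standard error 0.387 for the genotype difference). Scripts were tested on simulated data.

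Members, gene lists and tests were chosen with earlier results of these data known. Named are the members, Il33, the called and the 3 brightest genes of each list (the 2 brightest for markers, where a result turns on them), and the 5 genes that varied most like the most variable member. Further pericyte and smooth muscle markers were named after their values were seen. Alternatives were other filters and normalizations, sex, spike-in signal or keratinocyte median in the model, females only, trend and robust moderation, array weights, probeset means and leaving out each array.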

Additional observations from a re-analysis of the deposited data

How the results depend on the processing

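No paired analysis was possible because each animal number occurs in a single genotype. No setting called a member between genotypes (17 alternatives, smallest adjusted p = 0.566, limma) or in the interaction (7 alternatives). Between sexes, array weights called 1 member, Lamb2 (1.10, limma adjusted p = 0.0425), the other 14 alternatives none. The genotype differences of Lamb2 and Sparcl1 were above 0 in the 17 alternatives (0.051 to 0.90 and 0.065 to 1.35), which include no fit of the males or of the low spike-in arrays alone. In the low arrays they were -0.22 and -0.11, and between the males Sparcl1 had -0.38. Several uncalled differences changed sign, among them the sex differences of Nid2 (-0.35) and Sparcl1 (0.68). With the spike-in block the genotype differences of Nid2 and Sparc were 0.092 and -0.022, and the sex differences of Lama5, Nid2 and Sparcl1 were 0.016, 0.10 and -0.15. With the keratinocyte covariate the genotype differences of Lama5, Nid2 and Sparc were 0.12, 0.40 and -0.030, and the sex differences of Lama5 and Nid2 were 0.73 and 0.82. The sex difference of Lama5 was 0.085 after centring on medians and 0.00027 with array weights. Leaving out each array gave genotype differences of -0.36 to 0.31 for Lama5, -0.57 to 0.20 for Lamc1, -0.45 to 0.54 for Nid2 and -0.027 to 0.093 for Sparc. It gave sex differences of -0.58 to 0.56 for Lama5, -0.77 to 0.14 for Nid2 and -0.18 to 1.55 for Sparcl1. The cause of these changes was not tested. Where a male was left out, the lone male was assumed to vary like the other animals. Ceiling and background limit Sparc and Nid2.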
